A study of Mus musculus with 11 samples.

Results

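The genes described here are 9 that are used late in sperm formation: the protamine genes Prm1 and Prm2, the transition protein genes Tnp1 and Tnp2, and 5 genes of the sperm tail and late spermatid, Odf1, Oaz3, Smcp, Gapdhs and Gsg1. They were chosen by name, and all 9 were rows of a table of 20389 genes and other features. The study sorted live cells positive for green fluorescent protein from testes of 3 adult Dazl-GFP reporter mice (Dazl is a germ cell gene) and counted the polyadenylated RNA of each cell by SORT-Seq with unique molecular identifiers (UMIs, tags that mark original molecules). CEL-Seq1 was used for mouse 1, in 8 sets of 96 wells. CEL-Seq2 was used on plates of 384 wells for the others, 1 from mouse 2 and 2 from mouse 3, of which plate 8 was sorted by a gate and plate 10 with index sorting. No animal was treated, all carried the reporter, and the mouse is the replicate (n = 3). The protocol goes with the animal, so mouse 1 and CEL-Seq1 cannot be told apart.

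In spermatids, the haploid cells that become sperm, histones are replaced first by transition proteins and then by protamines, small basic proteins that pack the DNA of the sperm head. Transcription stops as the nucleus condenses, and the mRNAs of these proteins are made earlier and stored before they are translated. CREM, an activator that binds cAMP response elements (CREs), is known to drive many genes of this programme. The study's series concerns entry into meiosis, and the cells it staged are spermatogonia and spermatocytes, which come before the spermatid.

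Of the 1920 wells, 1448 held at least 1000 UMIs and were kept: 545 of mouse 1, 321 of mouse 2 and 582 of mouse 3, with medians of 16275, 9830 and 14132.5 UMIs. Total UMIs were 16682671, 5866174 and 18032562. Dazl had a UMI in 1411 of the 1448 wells (97.4%), and the eGFP row held only 60 UMIs, in 57 wells. Clusters and 10 ordered stages were built from odd-numbered autosomes without any of the 9 genes and without every listed gene. By markers, stage 1 was undifferentiated-spermatogonium-like, stages 2 to 4 were differentiating-spermatogonium-like, stage 5 was unnamed and led by Rbpms2, Dmc1 and Tex15, stage 6 was leptotene-and-zygotene-like, and stages 7 to 10 were pachytene-spermatocyte-like, although no pachytene marker stood among their 10 leading genes. No stage was spermatid-like. Summed round spermatid markers stood at 23.1 CPM (UMIs per 1000000 UMIs of all genes) in stage 1 and 351 CPM in stage 10.

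Tnp2, Prm2 and Prm1 lie side by side in the mm10 genome, with the related Prm3 between Tnp2 and Prm2, all on the minus strand within 17.9 kb (chr16:10787936-10805839). Tnp1 (chr1:73015074-73015909), Odf1 (chr15:38219203-38226735), Oaz3 (chr3:94432414-94443915), Smcp (chr3:92583867-92588997), Gapdhs (chr7:30729775-30743681) and Gsg1 (chr6:135237326-135254351) lie elsewhere, Odf1 on the plus strand and the others on the minus strand. The antisense gene 1700027A15Rik overlaps Tnp1, Tdrkh and Mrpl9 overlap Oaz3 on the other strand, and Gapdhs, Gsg1 and Prm1 also overlap plus-strand genes in the GENCODE annotation. Whether the counting used strand is not given in the sources used here, so the values of these 5 genes carry that uncertainty.

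Because the 9 genes share their place in the programme, their promoters were searched for the CRE palindrome TGACGTCA with at most 1 mismatch, on both strands (the word is its own complement), from 250 bases before to 50 after the RefSeq start. The motif was chosen with the sequences already in view. RefSeq promoters of build GRCm38.p6, of the same assembly as mm10, matched 7 of the 9 symbols, and Odf1 and Oaz3 had no entry. A match was found in 5 of the 7 and in 12.5% of all 32851 promoters of 300 bases, and an exact palindrome in none of the 7 and in 1.79% of all. The 7 are genes, of which Gapdhs and Gsg1 had 2 entries each. The percentages are of single promoters, so the shares are in unlike units. The 120 bases before the start of 6 members are shown, 5′ to 3′, so that the packaging genes with a match can be read against those without one, with every match in capitals.
Prm1, chr16:10796824-10796943, minus strand: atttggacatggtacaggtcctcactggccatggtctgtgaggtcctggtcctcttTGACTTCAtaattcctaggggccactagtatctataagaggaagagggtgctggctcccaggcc
Tnp1, chr1:73015900-73016019, minus strand: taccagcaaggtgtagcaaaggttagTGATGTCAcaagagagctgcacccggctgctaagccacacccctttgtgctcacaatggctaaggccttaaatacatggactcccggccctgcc
Gapdhs, chr7:30743682-30743801, minus strand: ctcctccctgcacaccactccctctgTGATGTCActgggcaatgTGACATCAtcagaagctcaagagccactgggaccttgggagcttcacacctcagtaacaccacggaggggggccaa
Gsg1, chr6:135254337-135254456, minus strand: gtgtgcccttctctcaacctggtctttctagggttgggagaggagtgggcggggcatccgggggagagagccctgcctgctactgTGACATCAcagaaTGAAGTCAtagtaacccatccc
Prm2, chr16:10792106-10792225, minus strand: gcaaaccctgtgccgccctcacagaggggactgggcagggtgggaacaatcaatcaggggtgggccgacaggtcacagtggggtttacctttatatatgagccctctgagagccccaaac
Tnp2, chr16:10788656-10788775, minus strand: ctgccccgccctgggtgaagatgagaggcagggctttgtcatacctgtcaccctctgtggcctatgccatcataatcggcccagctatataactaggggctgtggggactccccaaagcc

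The match began 64 bases before the start in Prm1 and 94 before it in Tnp1. Gapdhs held matches at 94 and 76 bases and Gsg1 at 35 and 22 bases before the start, while the match of Smcp (TGATGTCA) lay 24 bases after it. Prm2 and Tnp2 held none in this window. A match is a run of letters and not a measured site.

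The protamines made up at least 1% of all UMIs in 4 of the 1448 wells (0.276%, exact 95% confidence interval 0.0753 to 0.706), 1 in mouse 1, 1 in mouse 2 and 2 in mouse 3. These high-protamine wells were defined by that share, so their protamine values are descriptions. No Prm1 or Prm2 UMI was found in 1086 of the kept wells (75.0%). Of the 4 wells, mouse 3 gave plate 10 well 306 (7.13%, exact 95% interval 6.58 to 7.71) and plate 10 well 260 (3.22%, 2.86 to 3.61). The others were well 325 of mouse 2 (1.60%, 1.48 to 1.73) and well 716 of mouse 1 (1.20% of 1002 UMIs, 0.62 to 2.08). The interval of well 716 spans the 1% threshold, and its 12 protamine UMIs were all Prm2. Just outside the threshold lay well 100 of mouse 1 (0.617%, 0.508 to 0.743) and plate 8 well 110 of mouse 3 (0.569%, 0.494 to 0.652). These intervals cover counting error only. The count of wells was 6 at 0.5%, 10 at 0.2% and 20 at 0.1%.

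**Figure D1:**
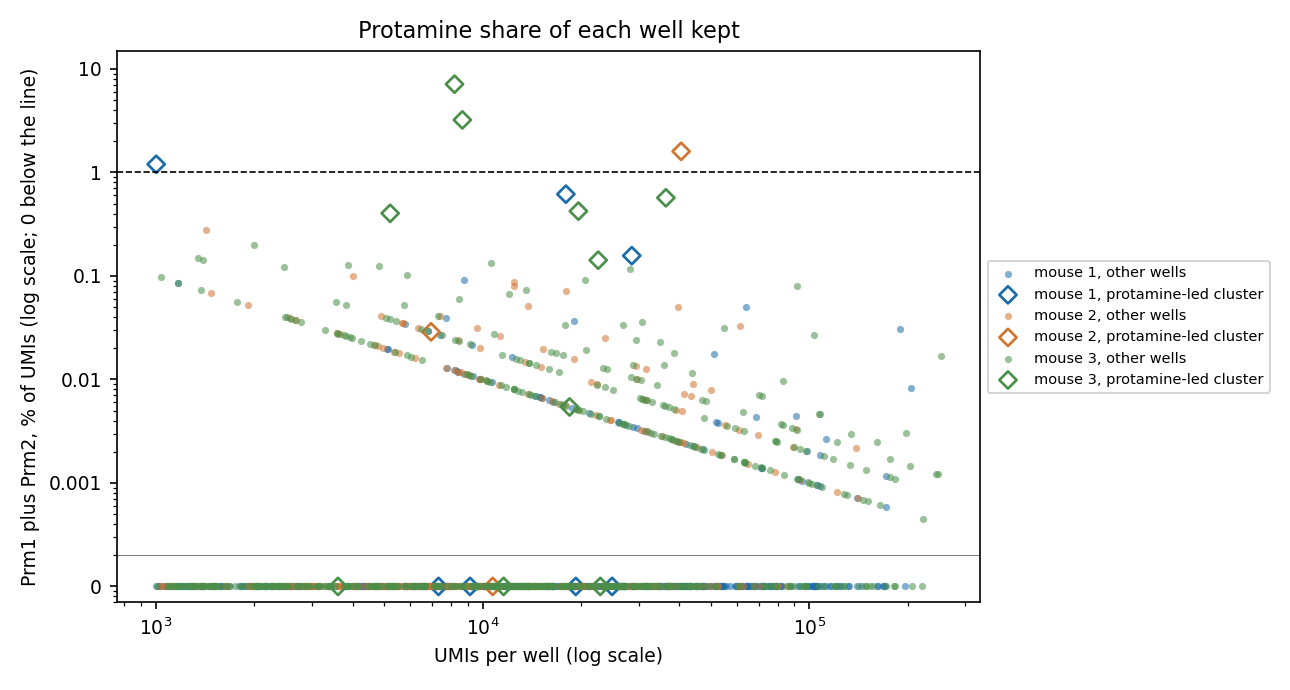
Each point is a well with at least 1000 UMIs, with its UMIs on a log x axis and the share of Prm1 plus Prm2, in % of UMIs, on a log y axis (wells at 0 are drawn under the grey line). Open diamonds mark the 20 wells of the cluster led by protamine genes, and the 4 wells above the dashed line at 1% are all diamonds.

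A cluster of 20 wells was led by the 9 genes although they took no part in its making: Prm2, Oaz3, Smcp, Odf1, Tnp2, Prm1 and Gsg1 stood among its 10 leading genes, with Clu, Akap4 and Spz1. It held 7 wells of mouse 1, 3 of mouse 2 and 10 of mouse 3, too few for a stage. All 4 high-protamine wells and all 6 wells above 0.5% were in it. Of the 7210 UMIs of the 9 genes in kept wells, 4291 (59.5%) lay in these 20 wells, with 39.1% in mouse 1, 70.8% in mouse 2 and 58.5% in mouse 3. Elongating spermatid and Sertoli cell markers tied among the leading genes, so the cluster was left unnamed.

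The cluster was mixed. In 7 of its wells at most 3 UMIs of the 9 genes were counted beside 7 to 95 UMIs (median 48) of the 10 Sertoli cell markers, and in 7 others the 9 genes gave over 100 and up to 1444 UMIs beside 0 to 44 Sertoli marker UMIs (median 2). The remaining 6 wells held between 3 and 100 UMIs of the 9 genes, and plate 8 well 153 of mouse 3 held both, 35 UMIs of the 9 genes and 162 of the Sertoli markers, the most of any well in the cluster. Summed Sertoli markers stood at 1687 CPM over the cluster and at 8.55 to 167 in the stages. All but Amh, which was at 0, were seen in the cluster. The 7 wells rich in the 9 genes held 18 to 182 UMIs of the elongating spermatid markers. Those markers stood at 4525 CPM there against 85.3 to 585 in the stages. Odf2, which is on this list, had 76.6 ± 27.2 CPM in stage 1 and 591 ± 199 in stage 10 (SD, n = 3 mice). The values of these stages are thus mostly Odf2. Earlier germ cell markers were also found in the 7 wells. Differentiating spermatogonium markers stood at 1300 CPM (234 to 3107 in the stages), leptotene and zygotene markers at 2556 (809 to 7323) and pachytene markers at 3131 (792 to 8893). Dazl was found in all 20 wells at 3 to 71 UMIs, and eGFP in none of them. Over the 7 rich wells Dazl stood at 1356 CPM. The part of Sertoli cell RNA in the result was not tested.

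Among the 7 wells with over 100 UMIs of the 9 genes, 2 compositions were seen, set apart by Tnp1. Plate 10 well 306 of mouse 3 (8203 UMIs) held Prm1 408, Prm2 177, Tnp1 212 and Tnp2 235 UMIs, and Odf1 37, Oaz3 43, Smcp 21, Gapdhs 19 and Gsg1 24. Well 325 of mouse 2 (40510 UMIs) held Prm1 6, Prm2 642, Tnp1 0 and Tnp2 5, and Odf1 130, Oaz3 163, Smcp 216, Gapdhs 79 and Gsg1 203. The first well was thus rich in Prm1 and both transition proteins, and the second nearly lacked these 3 mRNAs and was rich in Prm2 and the 5 tail and late genes.

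The other 5 wells are given by whether Tnp1 was found. Plate 10 well 260 of mouse 3 (8668 UMIs) held Prm1 82, Prm2 197, Tnp1 0 and Tnp2 2, with 52 to 93 UMIs of each of the 5 later genes. Plate 8 well 110 of mouse 3 (36387 UMIs) held Prm1 41, Prm2 166, Tnp1 0 and Tnp2 3, with 29 to 47 of each later gene. Neither nearly lacked Prm1, which gave 13.8% and 10% of the UMIs of the 9 genes there against 0.416% in well 325, and Prm1 in well 260 (0.946% of all UMIs) exceeded that of every well with Tnp1 except well 306. With Tnp1 present, well 100 of mouse 1 held Prm1 73, Prm2 38, Tnp1 59 and Tnp2 22, and its 5 later genes stood at 4 to 15 UMIs. Plate 8 well 246 of mouse 3 held Prm1 55, Prm2 28, Tnp1 19 and Tnp2 21. Well 337 of mouse 1 held Prm1 31, Prm2 14, Tnp1 14 and Tnp2 20, and no UMI of Odf1. Prm1 exceeded Prm2 in all 4 wells with Tnp1 and Prm2 exceeded Prm1 in all 3 without it, a description with no test.

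Tnp1, the transition protein gene that set these wells apart, had to differ between them. It took 25844 CPM in well 306, 3280 in well 100, 967 in well 246 and 489 in well 337, while a count of 0 allows up to 346 CPM in well 260, 82.4 in well 110 and 74.1 in well 325. The bound of well 260 thus lay not far under the level in well 337. Over the 4 wells with Tnp1, its UMIs were 18.3% of those of the 9 genes. Over the 3 without it, Tnp2, its partner in the same step, was 0.408% against 18%. Prm1 was at 5.27% against 34.2%, or 12.3% without well 325, which gave most of the UMIs. Prm2 was at 41.1% against 15.5%, or 36.2% without that well. The 5 tail and late genes together gave 53.3% against 14%, or 51.1% without well 325. Well 306 in turn gave most of the UMIs of the 4 wells with Tnp1. Without it, Tnp2 was at 13.0% there, Prm1 at 32.9%, Prm2 at 16.6% and the 5 tail and late genes at 18.4%. These shares add up within each group, so that one gene's share moves with the others.

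**Figure D2:**
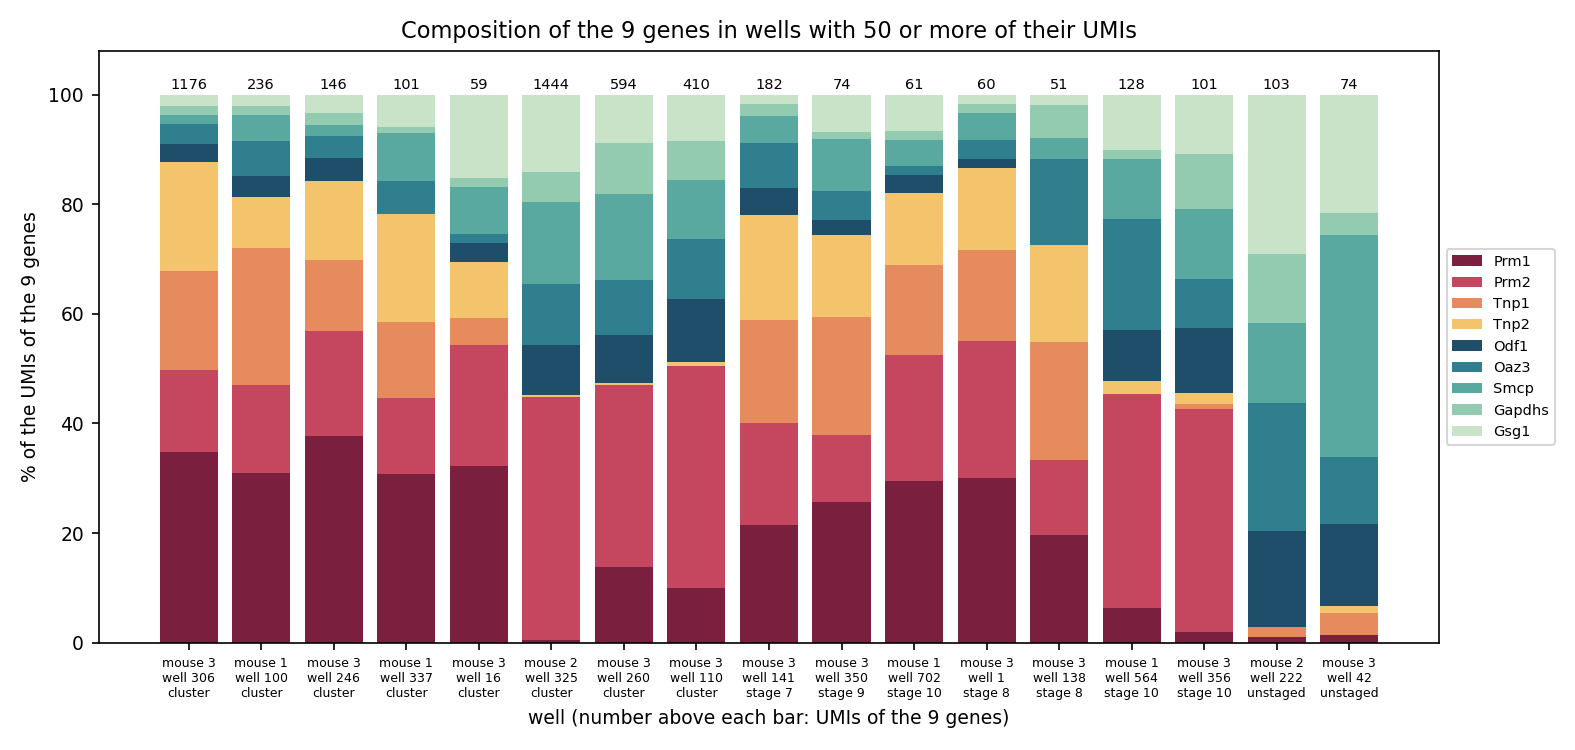
Each bar is a well with at least 50 UMIs of the 9 genes (their number stands above it) and shows the % of those UMIs that each gene gave. From the left are the wells of the cluster with Tnp1 and without it, then the staged wells and last 2 unstaged wells, in which tail and late genes gave 97.1% and 93.2%.

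The tail and late genes have separate roles. Odf1 encodes a protein of the outer dense fibres of the tail, Oaz3 a testis antizyme of polyamine control, Smcp a protein of the mitochondrial capsule, Gapdhs the sperm form of the glycolytic enzyme GAPDH, and Gsg1 a protein of the germ cell endoplasmic reticulum. In the 3 wells without Tnp1 all 5 were seen, at 29 to 216 UMIs, with Smcp highest in wells 325 and 260 and Odf1 in well 110. In the 4 wells with Tnp1 the highest of the 5 was Oaz3 in wells 306 and 100 at 43 and 15 UMIs.

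Other spermatid genes were counted in the same wells. Hmgb4, a chromatin protein gene of spermatids, had 20 UMIs in well 306, 1 to 3 in the other 3 wells with Tnp1 and 0 in the 3 wells without it. Hils1, a spermatid linker histone gene, had 19 UMIs in well 306 but only 1 to 4 in the other 3 wells with Tnp1, against 1 to 2 in those without it. Akap4, an anchoring protein gene of the tail's fibrous sheath, had 51, 60 and 51 UMIs in wells 325, 260 and 110, 28 in well 306 and 3 to 9 in the other 3. Prm3, which lies between Tnp2 and Prm2, had 10 UMIs in well 306 and 0, 7 and 3 in wells 325, 260 and 110. The antisense 1700027A15Rik had 18, 12 and 4 UMIs in wells 325, 260 and 110, where Tnp1 was at 0, and 13 in well 306.

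A like division was seen over the 27 wells with at least 10 Prm1 plus Prm2 UMIs, of which 10 were in the cluster. The 7 rich wells that first showed it are among these 27. In 8 of the 27 wells Tnp1 had 0 or 1 UMI, and there Prm2 made up 70.6% to 100% of protamine UMIs. In the other 19, Tnp1 had 2 or more UMIs and Prm2 made up 0% to 52.6%. At this cut the ranges of the Prm2 share did not overlap, and both sets held wells of all 3 mice. The cut differs from that used above, Tnp1 found or at 0. By that earlier cut, plate 8 well 356 of mouse 3 (Tnp1 1, Prm2 at 95.3%) would join the second set and the ranges would overlap. In the first set Tnp1 reached 2.33 UMIs per 100 protamine UMIs, and in the second it ranged from 9.38 to 64.7. The sets were formed from Tnp1 in the same wells, so that no test was made.

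**Figure D3:**
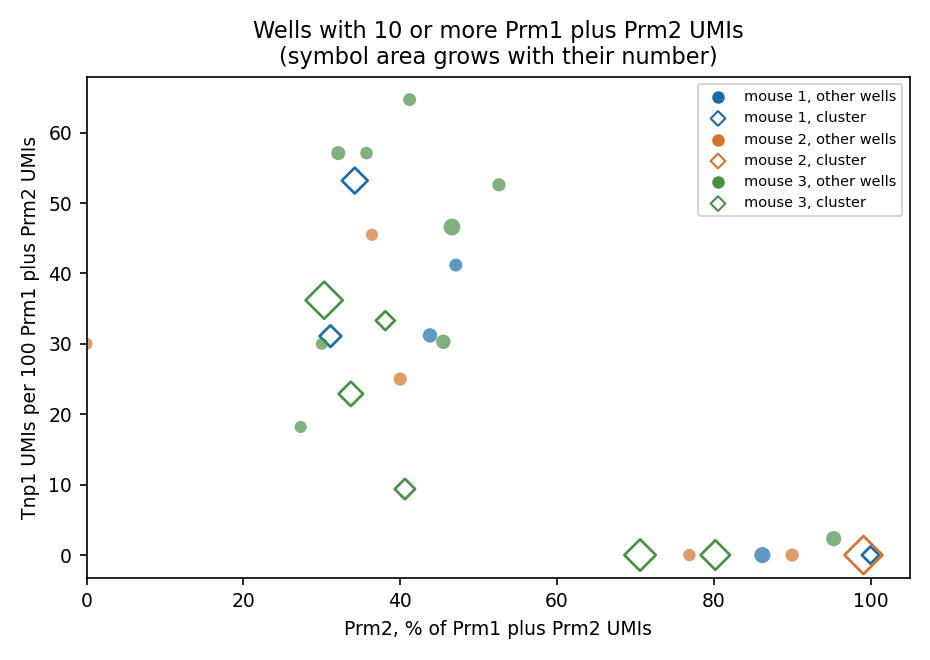
Each symbol is a well with at least 10 Prm1 plus Prm2 UMIs, with the Prm2 share of these in % on the x axis and Tnp1 UMIs per 100 of them on the y axis. The 8 wells at the right, with Prm2 at 70.6% or more, lie at or near a Tnp1 of 0, and the other 19 lie at 52.6% or less with Tnp1 at 9.38 or more.

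Staged wells in this comparison numbered 16. Plate 8 well 141 of mouse 3, in stage 7, held Prm1 39, Prm2 34, Tnp1 34 and Tnp2 35 among 91599 UMIs, the composition with Tnp1. Well 564 of mouse 1, in stage 10, held Prm1 8, Prm2 50, Tnp1 0 and Tnp2 3 among 189684 UMIs, and plate 8 well 356 of mouse 3, also in stage 10, held Prm1 2, Prm2 41, Tnp1 1 and Tnp2 2 among 252952. Well 289 of mouse 2, in stage 9, held Prm1 2, Prm2 18, Tnp1 0 and Tnp2 1. Well 218 of mouse 2, in stage 3, held Prm1 3, Prm2 10 and Tnp1 0, and well 323 of mouse 2, in stage 2, held Prm1 7, Prm2 4 and Tnp1 5. Of the 4 staged wells with Tnp1 at 0 or 1, 1 was in stages 1 to 4 and 3 in stages 8 to 10. The 12 others comprised 2 in stages 1 to 4, 5 in stages 5 to 7 and 5 in stages 8 to 10. The composition with Tnp1 was thus found in differentiating-spermatogonium-like stages as well as in late ones. For the composition without Tnp1, the early stages gave only well 218. Its count of 0 allows up to 167 CPM of Tnp1, and with so few protamine UMIs it does not show that Tnp1 was absent. Whether staged wells of either composition hold RNA of a further cell was not tested.

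A further composition, tail and late genes nearly without packaging genes, was found in 1 well of each mouse in an unstaged cluster of 23 large wells (median 107783 UMIs). Well 222 of mouse 2 held Odf1 18, Oaz3 24, Smcp 15, Gapdhs 13 and Gsg1 30 UMIs beside Prm1 1, Prm2 0, Tnp1 2 and Tnp2 0. Plate 8 well 42 of mouse 3 held Odf1 11, Oaz3 9, Smcp 30, Gapdhs 3 and Gsg1 16 beside Prm1 1, Prm2 0, Tnp1 3 and Tnp2 1. Well 57 of mouse 1 held Odf1 9, Oaz3 1, Smcp 15, Gapdhs 4 and Gsg1 6, and none of the 4 packaging genes, for which a count of 0 allows up to 46.9 CPM each. The 12 round spermatid markers stood at 2620, 1080 and 1380 CPM in these 3 wells, against 1710 in well 306 and 55.6 to 461 in the other 6 wells rich in the 9 genes. Outside that cluster, 2 stage 9 wells with no protamine UMI held 15 (well 338 of mouse 1) and 10 (plate 8 well 355 of mouse 3) UMIs of the tail and late genes.

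The 10 genes listed next, none of them among the 9, stood highest in the 4 high-protamine wells relative to stage 10, of 560 with at least 20 UMIs there. They were Spata3, 1700003F12Rik, Cabs1, Lelp1, 4933411K16Rik, Irgc1, 4930571K23Rik, 1700016H13Rik, Znrf4 and 1700009J07Rik. Spata3, a testis gene, had 47 UMIs in the 4 wells and 2 UMIs in the 83 wells of stage 10. Cabs1, which encodes a calcium-binding protein of the sperm tail, had 71 and 5, with 43 in well 325. 4933411K16Rik had 125 and 10, and was the only one of the 10 besides Znrf4 with a UMI in well 716 of mouse 1. Of the 9 genes themselves, Gapdhs stood at 2638 CPM in the high wells and 2.26 in stage 10, and Gsg1 at 4796 and 7.37. The high wells are pooled here, and well 325 of mouse 2 gave 79 of their 154 UMIs of Gapdhs and 203 of their 280 of Gsg1. Since Prm1 and Prm2 chose the wells and mouse 3 gave 2 of the 4, these values describe the wells and were not tested.

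Outside those wells the 9 genes gave a low signal. The 1160 staged wells held 2528 UMIs of them, and 600 wells (51.7%) held none. The level was 31.0 CPM in mouse 1, 88.3 in mouse 2 and 97.9 in mouse 3, a mean of 72.4 ± 36.2 (SD, n = 3 mice). Per 1000 UMIs of the ERCC spike-ins it was 5.1, 3.86 and 4.39 in the same order, with mouse 1 highest and a mean of 4.45 ± 0.621. Whether the protocols used like amounts of spike-in was not tested. The signal was uneven: 41 wells with at least 10 UMIs of the 9 genes held 49.9% of it and the 10 richest wells held 31.0%, or 63.3% within mouse 1. Over all stages Prm1 gave 558 UMIs, Prm2 454, Tnp1 336, Tnp2 272, Oaz3 248, Smcp 224, Gsg1 184, Odf1 176 and Gapdhs 76. These are UMIs and not levels per length, so their order is not an order of expression.

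The low signal also reached wells with hardly any cellular RNA. Among 472 wells under 1000 UMIs (median 342), 46 (9.75%) had a UMI of the 9 genes, and the mean was 0.207 ± 0.147 UMIs per well (SD, n = 3 mice) against 2.11 ± 1.29 in staged wells. Relative to all UMIs the order was the opposite, 530 ± 372 CPM in those shallow wells and 72.4 ± 36.2 in staged wells. After thinning each staged well to 3000 UMIs, 6.59% (stage 2) to 28.2% (stage 5) of wells had such a UMI, against 33.0% to 64.2% unthinned. The wells left out as too shallow were at most 14 in a stage. Reads per UMI of the 9 genes were 2.32, 2.84 and 2.43 in staged wells of mice 1, 2 and 3. All genes had 3.53, 4.22 and 3.55 there. In the 7 rich wells the 9 genes had 3.41, 3.32 and 2.50, higher than in staged wells in each mouse, and all genes 3.62, 4.28 and 3.54. Wells next to the richest ones by number held a mean of 0 to 4.62 UMIs of the 9 genes by library, against 0.697 to 2.30 in other wells, without a common direction. Whether the low signal is RNA of the staged cell or free RNA was not tested.

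The composition of the low signal differed at stage 10, and for the Tnp1 ratio and the Prm2 share this was mostly through 2 wells. Tnp1 UMIs per 100 protamine UMIs were 37.1 in stages 1 to 4, 39.1 in stages 5 to 7, 36.0 in stages 8 and 9 and 12.8 in stage 10. The same ratio was 30.5 in wells under 1000 UMIs and 36.9 in the 4 rich wells with Tnp1. Prm2 made up 34.8%, 39.1%, 45.7% and 68.7% of protamine UMIs in the same 4 blocks of stages. Tail and late genes gave 31.4%, 30.1%, 37.1% and 50.2% of the UMIs of the 9 genes. Of the 123 UMIs of Prm2 in stage 10, well 564 held 50 and well 356 held 41. Without these 2 wells the stage had 28.2 Tnp1 UMIs per 100 protamine UMIs and a Prm2 share of 41.0%, below that of stages 8 and 9. Tail and late genes still gave 47.3%, above stages 8 and 9 with or without their own 2 richest wells (37.1% and 41.7%).

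**Figure D4:**
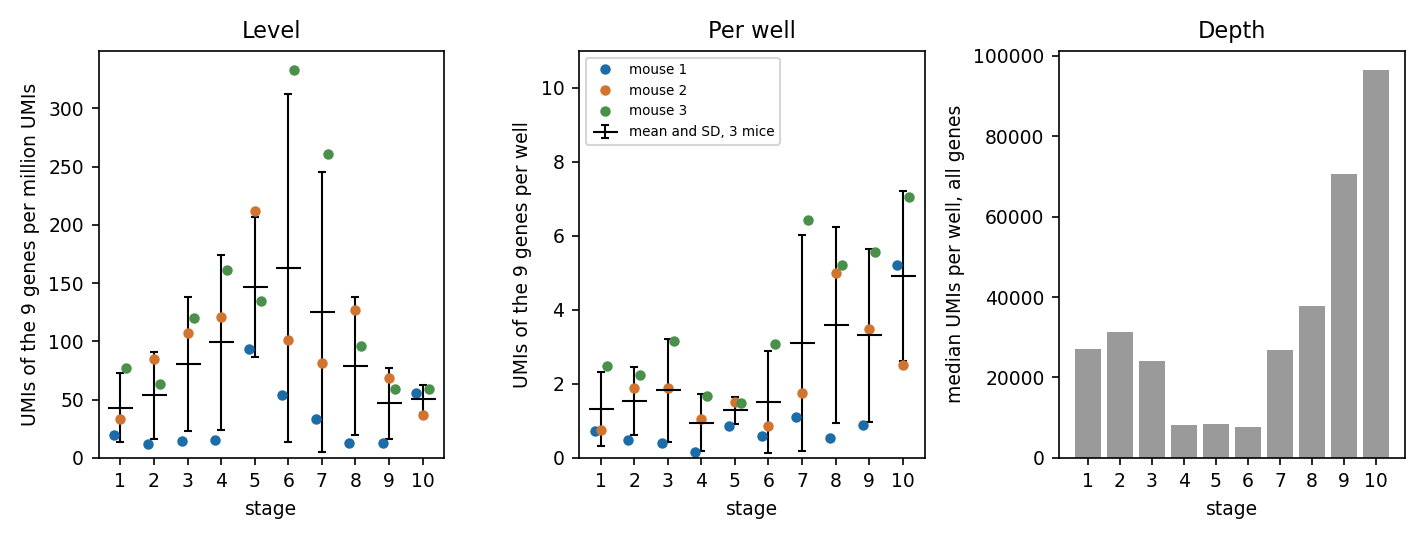
Level of the 9 genes in CPM (left) and per well (middle) at each stage, as points for the 3 mice with mean and SD, and the median UMIs of all genes per well (right). The level was highest at stage 6 (163 CPM) and the number per well at stage 10 (4.92), while depth was lowest at stage 6 and highest at stage 10.

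By stage, the summed level of the 9 genes went from 43.2 ± 29.9 CPM (SD, n = 3 mice) at stage 1 to 163 ± 149 at stage 6, and to 50.4 ± 11.9 at stage 10. The mice were far apart: at stage 6 the values were 54.2, 101 and 333 in mice 1, 2 and 3, and a single well gave 72.5% of the UMIs of mouse 3 at stage 7. Counted per well, the 9 genes gave 1.32 ± 0.999 UMIs in stage 1, 1.51 ± 1.36 in stage 6 and 4.92 ± 2.29 in stage 10. Wells of stage 6 had a median depth of only 7766.5 UMIs, against 27010 in stage 1 and 96447 in stage 10, so that the level was highest where wells held least RNA. The part of depth in this pattern was not tested.

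Prm1 went from 2.46, 2.75 and 15.6 CPM in mice 1, 2 and 3 at stage 1 to 14.1, 32.9 and 71.0 at stage 6. Each mouse was higher at stage 6, although mouse 3 at stage 1 lay above mouse 1 at stage 6. By edgeR's quasi-likelihood test with the mouse as a block, the log2 fold change was 2.39 ± 0.79 (SE, adjusted p = 0.014). Tnp2 went from 1.23, 5.49 and 8.75 to 8.25, 15.2 and 67.6, with a log2 fold change of 2.66 ± 0.77 (edgeR adjusted p = 0.00364). The 3 mice rose here too, with mouse 3 far above the others.

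At stage 6, 5 of the 7 members that passed the filter on low counts were called higher than at stage 1 at an adjusted p under 0.05, where 28.8% of all 11994 genes were called higher and 31.8% lower. Beside Prm1 and Tnp2 they were Oaz3 (log2 fold change 2.16 ± 0.76, edgeR adjusted p = 0.0131), Smcp (1.92 ± 0.65, 0.00971) and Tnp1 (1.41 ± 0.61, 0.0456). Prm2 (1.49 ± 0.97, 0.198) and Odf1 (1.22 ± 0.79, 0.182) did not pass, and Gapdhs and Gsg1 were too low to be tested. The count was 3 without mouse 2, 1 (Prm1) without mouse 3, 3 without the gate-sorted plate 8, and 0 with no mouse term. It thus rests on mouse 3 and on the block. These calls are on levels relative to all UMIs. Counted per well, Tnp1 was lower at stage 6, at 0.265 ± 0.208 UMIs against 0.325 ± 0.203 at stage 1 (SD, n = 3 mice). Smcp went from 0.114 ± 0.127 to 0.139 ± 0.138 per well, Oaz3 from 0.0777 ± 0.0978 to 0.125 ± 0.151, Prm1 from 0.218 ± 0.245 to 0.363 ± 0.261 and Tnp2 from 0.151 ± 0.12 to 0.281 ± 0.298.

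Prm1 alone was called higher at stage 5 (log2 fold change 2.48 ± 0.82, edgeR adjusted p = 0.0145; 26.4% of all genes were called higher and 30.4% lower), with none without mouse 2, 3 members without mouse 1 and 4 without mouse 3. At stage 7, 4 members were called higher, Oaz3, Prm1, Smcp and Tnp2, where 31.1% of all genes were called higher and 37.5% lower. That count was 1 without mouse 2 and 0 without mouse 3, without plate 8, or without the richest well of each stage and mouse. At stages 2, 3, 4, 8 and 9 no member was called in edgeR, where 13.9%, 21.3%, 18.8%, 32.1% and 34.5% of all genes were called higher and 13.6%, 20.5%, 20.9%, 39.6% and 40.2% lower. There, 1 member had an unadjusted p under 0.05 at stage 4 and 1 at stage 8. No member was called lower at any stage.

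Between the earliest stage and the latest, 1 of the 7 tested members was called higher, Oaz3, and none lower, where 34.4% of all genes were called higher and 40.5% lower. Oaz3 stood at 1.23, 0 and 5.84 CPM at stage 1 and at 8.20, 3.68 and 5.98 at stage 10 in mice 1, 2 and 3. Its log2 fold change was 1.92 ± 0.73 (edgeR adjusted p = 0.0173), with mouse 2 left out of the latest stage because it had 8 wells there. Without the richest well of each stage and mouse the value was 0.55 (adjusted p = 0.54), without mouse 1 it was 0.96 (0.269), and without mouse 2 it was 1.62 (0.0863).

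Prm2 and Tnp1 lay at the threshold in opposite directions. Prm2 had 1.23, 11 and 12.6 CPM at stage 1 and 16.1, 3.68 and 14.6 at stage 10, overlapping ranges, with a log2 fold change of 2.06 ± 0.92 (edgeR adjusted p = 0.0502). Without the richest well of each stage and mouse the Prm2 value was 0.04 (adjusted p = 0.957), and with stages made without alignment it was 0.17. Tnp1 had 8.62, 5.49 and 16.5 at stage 1 and 3.48, 0 and 2.34 at stage 10, each mouse lower, with a log2 fold change of -1.39 ± 0.71 (edgeR adjusted p = 0.0778), and -0.38 without mouse 3. Prm1 (0.41 ± 0.89), Tnp2 (0.36 ± 0.88), Odf1 (1.06 ± 0.72) and Smcp (1.17 ± 0.64) had adjusted p of 0.69, 0.721, 0.182 and 0.0936. The median log2 fold change was 1.06 over the 7 tested members and -0.18 over all genes.

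Other genes of the sperm head and tail, from a list that holds none of the 9, were higher in the latest stage in 13 of 17 tested and lower in 1, of 38 in the table. That is 76.5% called higher, against 34.4% of all genes, both among genes that passed the filter on low counts. With no filter 15 of 38 were called higher, and from reads 14 of 31, so the share depends on the filter. The median log2 fold change of the 17 was 3.22. Pgam2, a glycolytic mutase, went from 8.07 ± 7.41 to 329 ± 46.2 CPM (SD, n = 3 mice; log2 fold change 5.37 ± 0.25, edgeR adjusted p = 6.1e-25). Odf2, another outer dense fibre gene, went from 76.6 ± 27.2 to 591 ± 199, Tcp11 from 32.2 ± 14.4 to 418 ± 150, and Tekt1, a tektin of the tail's microtubules, from 13.3 ± 4.46 to 214 ± 53.7. Hk1, a hexokinase, fell from 88.7 ± 5.5 to 50.3 ± 15.4, a call lost from reads and with no mouse term. In the same stage Odf1 had 3.15 ± 3 CPM. These means include the 8 wells of mouse 2, which the test left out.

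Regulators of the spermatid programme were called higher in 11 and lower in 6 of 18 tested (61.1% and 33.3%), with a median of 1.08. Crem went from 17.2 ± 4.44 to 133 ± 5.15 CPM (log2 fold change 3.14 ± 0.23, edgeR adjusted p = 1.25e-17) and each mouse was higher. Gtf2a1l, a germ cell form of the general factor TFIIA, Sox30 and Tbpl1 rose to 211 ± 20.1, 98.4 ± 7.83 and 383 ± 33.6. Taf7l, an X-linked factor, fell from 664 ± 98.9 to 6.24 ± 4.06, and Ep300, Brwd1 and Kif17 also fell.

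Genes for the storage and delayed translation of mRNA were called higher in 18 and lower in 3 of 24 tested (75.0% and 12.5%), with a median of 1.0. Ybx2 and Ybx3, which bind stored germ cell mRNAs, went from 271 ± 152 to 2629 ± 993 and from 180 ± 86.7 to 2321 ± 836 CPM. Tdrd6, of the chromatoid body, rose to 372 ± 64.8 and the translation factor Eif4g3 to 543 ± 75.7. Dazl fell from 1433 ± 133 to 325 ± 50.3, and Zfp36l2 and Paip2 fell as well.

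Of the body-wide relatives of the 9 genes and their pathway, 3 of 10 tested were called higher and 5 lower, with a median of -0.5. These shares, 30% and 50%, lay near those of all genes (34.4% and 40.5%). Gapdh, the counterpart of Gapdhs, fell from 410 ± 317 to 47.6 ± 41 CPM (log2 fold change -2.97 ± 0.16, edgeR adjusted p = 3.36e-22). Oaz1, the common antizyme, fell from 230 ± 232 to 68.4 ± 73.9, while Oaz2 rose to 244 ± 11.9. Odc1, the enzyme that antizymes act on, rose from 131 ± 49.5 to 546 ± 113. The X-linked Sat1 and Sms fell to 0.7 ± 0.995 and 0.772 ± 0.941. Amd1 was called higher but had its UMIs nearly all in mouse 1 (304 CPM at stage 10, with 0 and 0.26 in mice 2 and 3). Gapdh, Oaz1 and Amd1 have near-identical copies in the genome, and mouse 1 was highest for each, so their levels are uncertain.

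Over the 29 sums of mouse and stage, the genes most like each tested member in log2(CPM + 10) were named by Pearson's r, which shares library and depth between genes. Prm1 was followed by Ube2q1 (0.837), Ankib1 and Kctd3, Tnp1 by Ube2q1 (0.798), 1810026J23Rik and Ddx5, and Tnp2 by Tmem41b (0.768), Spz1 and Srsf5. Prm2 was followed by Spz1 (0.824), Akap8l and Prrc2a, and Oaz3 by Spz1 (0.844), Vps25 and Cyth2. Odf1 was followed by Akap8l (0.736), Dnttip1 and Mrps11, and Smcp by Mttp (0.719), Zfp746 and Polr2a. Among themselves the members' r lay between 0.623 (Odf1 with Tnp2) and 0.88 (Prm1 with Tnp1).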

How the data were processed

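The authors deposited UMI counts and read counts for each gene in each well, as whole numbers, beside estimated counts of transcripts corrected for UMI collisions. BWA 0.7.10 and build mm10 are named in the submitters' processing notes, and the annotation and the counting tool are not given in the sources used here. UMI counts over autosomes, X and Y, without spike-ins, mitochondrial genes, eGFP and Rn45s, were the main values, read in Python 3.11.15 with pandas 2.3.3. Read counts and rounded estimated counts were alternatives. The wells of mouse 1 stood in another order in the estimated counts and were matched by profile (lowest correlation 0.997). The names of its wells do not separate its 8 libraries.

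Wells with at least 1000 UMIs were aligned across mice with Seurat 5.3.0 anchors (15 dimensions) on 1500 variable genes of odd-numbered autosomes and clustered with scanpy 1.11.5 (Leiden resolution 1.0), giving 16 clusters. Those holding 10 cells of each of 2 or more mice, not led by somatic markers and not shallow, became the 10 stages (1160 wells), ordered by diffusion pseudotime. A well held 1 sorted cell and doublets were not removed. UMIs were summed by mouse and stage (at least 10 cells, 29 sums) and tested with edgeR 4.0.16 (quasi-likelihood, TMM, filterByExpr, mouse as block, Benjamini-Hochberg over all 11994 genes, adjusted p under 0.05), with DESeq2 1.42.0 as an alternative, after a test on simulated data. The same animal gives every stage, and deviations from stage means correlated at 0.645 within a mouse and -0.289 between mice. With the mouse as block, p-values rest on the spread left between the 29 sums after mouse and stage, pooled over stages. They do not measure the spread between 3 mice, and stage 10 had sums of mice 1 and 3 only. Named genes are the 9 members, up to 4 genes with the lowest adjusted p per list and direction, 3 most alike genes per tested member, and 10 genes raised in high-protamine wells (at least 20 UMIs, 2 mice). The members and lists were chosen with earlier results of these data known. Prm1 plus Prm2 at 1% of UMIs defined a high-protamine well, and an interval is an exact binomial one at 95%.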

Additional observations from a re-analysis of the deposited data

Results flagged for a closer look

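Wells under 1000 UMIs were used in no comparison of stages, and 2 of them held a protamine share above the 1% threshold and more than the 3 UMIs that a count of 0 allows. Well 429 of mouse 1 had 2.04% of its 735 UMIs from Prm1 and Prm2, with Prm1 1, Prm2 14 and Tnp1 0. Well 588 of mouse 1 had 1.61% of its 310 UMIs from them, with Prm1 3, Prm2 2 and Tnp1 2. Neither held a Sertoli marker UMI. Without these 2 wells, 84 of the 116 UMIs of the 9 genes in wells under 1000 UMIs remained.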

How the results depend on the processing

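The number of members called higher in the latest stage (1) was 4 from reads, 3 from stages made with even-numbered autosomes, without plate 8 and with no filter, 2 with DESeq2 and without wells at 0.1%, and 0 with unaligned stages, sums of at least 20 cells, the richest wells left out, or no replicate block. Leaving out a mouse gave 0 to 3. The number called lower (0) was 1, Tnp1, from the deposited transcripts, with unaligned stages (mice 2 and 3 only), sums of at least 5 cells, RLE factors and no filter, and 0 to 1 without a mouse. Prm1 turned to -0.38 with unaligned stages and -0.70 without mouse 1, and Tnp2 to -0.20, -1.0 and, with no replicate block, -0.17. Odf1 turned to -0.37 without the richest wells. At stage 5 the count (1) was 3 without plate 8, 4 with no filter, 0 with no replicate block and 0 to 4 without a mouse. At stage 6 (5) it was 2 from reads, 3 from sums of at least 20 cells and without plate 8, 0 with no replicate block and 1 to 6 without a mouse. At stage 7 (4) it was 1 from reads, 2 from transcripts, with RLE factors and without wells at 0.1%, 0 from sums of at least 20 cells, without plate 8, without the richest wells or with no replicate block, and 0 to 5 without a mouse. The cause was not tested. Of 144 list counts, 130 stayed within 1.5 times. The head and tail genes called lower (1) were 0 from reads, even-autosome or unaligned stages, without plate 8, with no filter and with no replicate block (0 to 1 without a mouse). The storage genes called lower (3) were 5 from transcripts, sums of at least 5 cells, without the richest wells, with RLE factors and no filter, and 6 with DESeq2. The relatives called lower (5) were 3 with no replicate block. High-protamine wells (4) were 2 at 2%, 1 at 5% and 2 to 3 without a mouse. The low-level signal (72.4 CPM) stayed within 1 SD between mice (36.2) in all 8 alternatives, and was 59.7 to 93.1 without a mouse. That margin is too wide to show stability. Leaving out wells at 0.1%, the richest wells (also from compositions) and sums of at least 5 cells were chosen after seeing the data. RLE factors moved the median of all genes by -0.19 on the log2 scale.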
